A study of Mus musculus with 16 samples.

Results

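The 8 genes described here, Tmem260, Ldb3, Ncoa4, Cmtm5, Myh6, Mmrn2, Klhl1 and Arhgap22, lie on mouse chromosome 14, as does Kcnma1, the gene of the BK potassium channel. They are 8 of 22880 genes in the deposited table and were selected on their baseline normalized counts, chosen by a difference between BK deficient and wild type mice. Brain cortex RNA was sequenced from 16 individual mice, 4 in each of 4 groups, all of the background F1 C57Bl6/J x Sv129. WT_BL and KO_BL were wild type littermates and BK deficient mice left undisturbed in home cages shared by pairs of animals. WT_SD and KO_SD were the same genotypes after 4 h of sleep deprivation, which began at light onset and was done by gentle handling. All tissue was taken at zeitgeber time (ZT) 4, and the labels give neither age nor sex. A library is named by its group and replicate number. The question was whether the baseline difference between genotypes was also present in the sleep deprived mice, whose libraries had no part in choosing the genes.

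The BK channel opens on membrane depolarisation and intracellular calcium, carries potassium out of the cell, and shapes action potentials and transmitter release in neurons. When a gene is inactivated by targeting, the alleles that lie beside it on its chromosome are inherited with it until recombination separates them. A knockout group can therefore differ from littermates in the alleles of neighbouring genes. The alleles themselves would be the same under every treatment. Whether their effect on expression would be the same at baseline and after deprivation is not known here. The part of such alleles in the values below was not tested. The labels do not give the strain in which the BK mutation was made, its generation of backcrossing, or the exon that was deleted.

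The 8 genes encode proteins of unrelated function. Tmem260 is an O-mannosyltransferase of the endoplasmic reticulum that modifies plexins and related receptors, and Ncoa4 is the receptor that brings ferritin to the autophagosome. Ldb3, also called Cypher or ZASP, is a Z-disc protein of striated muscle, and Myh6 is the alpha myosin heavy chain of the heart. Cmtm5 is a membrane protein with a MARVEL domain that is enriched in oligodendrocytes. Mmrn2 is a matrix protein of endothelial cells. Klhl1 is an actin-binding kelch protein of neurons, and Arhgap22 is a GTPase-activating protein for Rac.

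Promoter sequence is shown for the gene with the smallest baseline p among the 8 (Tmem260), for the gene that moved most like it (Ncoa4), and for the adjacent pair Cmtm5 and Myh6. RefSeq promoter entries on GRCm38.p6 matched 7 of the 8 genes. Each runs from 250 bases before to 50 after the start that the entry uses. Of several entries for a gene, the one nearest to the annotated start was taken. The start of an entry can differ from the annotated start of the gene. The Myh6 region lies wholly inside the gene, whose annotated start is 54966927. Most of the Cmtm5 region lies after the annotated start of that gene, 54936261. Capitals mark the TATAAA motif in Tmem260 and Myh6 and the CCAAT motif in Cmtm5. The regions are chr14:48445873-48446172 on the plus strand for Tmem260 and chr14:32159637-32159936 on the plus strand for Ncoa4. Those of the pair are chr14:54936220-54936519 on the plus strand for Cmtm5 and chr14:54966558-54966857 on the minus strand for Myh6.
Tmem260: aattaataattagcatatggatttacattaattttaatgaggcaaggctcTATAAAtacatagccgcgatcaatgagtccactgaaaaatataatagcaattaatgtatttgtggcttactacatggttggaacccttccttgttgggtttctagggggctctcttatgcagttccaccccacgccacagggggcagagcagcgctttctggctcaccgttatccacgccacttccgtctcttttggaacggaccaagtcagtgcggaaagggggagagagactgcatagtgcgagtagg
Ncoa4: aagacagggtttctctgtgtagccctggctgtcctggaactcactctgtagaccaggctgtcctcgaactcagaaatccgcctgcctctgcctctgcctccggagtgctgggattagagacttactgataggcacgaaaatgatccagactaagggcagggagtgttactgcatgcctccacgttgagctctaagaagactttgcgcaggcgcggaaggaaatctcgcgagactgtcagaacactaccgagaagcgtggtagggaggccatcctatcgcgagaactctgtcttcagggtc
Cmtm5: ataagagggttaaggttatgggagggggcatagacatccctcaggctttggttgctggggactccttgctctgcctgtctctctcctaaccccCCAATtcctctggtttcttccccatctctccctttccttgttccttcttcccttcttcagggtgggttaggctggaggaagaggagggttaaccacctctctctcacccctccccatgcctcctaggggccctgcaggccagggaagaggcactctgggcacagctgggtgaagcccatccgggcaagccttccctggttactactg
Myh6: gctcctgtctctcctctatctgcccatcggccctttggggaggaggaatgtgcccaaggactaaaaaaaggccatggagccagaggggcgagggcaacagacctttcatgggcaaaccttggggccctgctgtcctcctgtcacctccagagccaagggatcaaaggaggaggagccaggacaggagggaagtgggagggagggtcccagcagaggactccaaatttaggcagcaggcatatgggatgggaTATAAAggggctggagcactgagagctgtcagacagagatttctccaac

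Searched on both strands of each entry were the TATA box (TATAAA), the CCAAT box, the E-box (CACGTG) and the cyclic AMP response element (TGACGTCA), and no match overlapped another. TATAAA stood once in the entries of Tmem260, Myh6 and Klhl1, on the given strand, and CCAAT once in that of Cmtm5. Among all 32851 promoter entries, 13.6% held TATAAA, 37.4% CCAAT, 7.15% CACGTG and 1.79% TGACGTCA. None of the 4 motifs was in the entries of Ldb3, Ncoa4 and Arhgap22. The Ncoa4 entry held 14 CpG dinucleotides and that of Tmem260 10, whereas Cmtm5 held 1 and Myh6 2, against a median of 7 over all entries. These matches are descriptions of the letters and not of bound sites.

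The libraries held 8.76 M to 30.5 M recovered reads, the shallowest being KO_BL 1 and the deepest KO_SD 2. Markers of cortical excitatory neurons were present in every library, with normalized counts of 19000 to 32950 for Slc17a7, the vesicular glutamate transporter, and 2485 to 3759 for Tbr1, a transcription factor of deep cortical layers. Kcnma1 itself had reads in all libraries. The lowest and highest normalized counts were 1151 and 1888 in WT_BL, 1424 and 2155 in KO_BL, 823.5 and 1584 in WT_SD, and 432.5 and 2005 in KO_SD. KO and WT means differed by 0.24 ± 0.178 (log2, SE) at baseline and by -0.19 ± 0.39 after deprivation (limma, adjusted p = 0.982 and adjusted p = 0.9999). As the deleted exon is not given, the count of the whole gene does not check the genotype labels, and KO below means the libraries labelled BK deficient. In bulk tissue, fewer cells of a type and less RNA per cell cannot be told apart.

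Tmem260 lies at chr14:48446124-48524246 on the plus strand (GRCm38; ENSMUSG00000036339), 24.4 Mb from Kcnma1. Its normalized counts, which the authors scaled for library size, in WT_BL were 373.6, 353.8, 342.8 and 358.1, in the order of the replicate numbers, and in KO_BL 483.1, 477.9, 533.3 and 472.5. They were 486.6, 433.9, 453.4 and 616.3 in WT_SD and 564.7, 478, 474.7 and 378.1 in KO_SD. The 4 WT_BL libraries lay below each of the other 12, while KO_BL, WT_SD and KO_SD overlapped each other. The baseline means were 357 ± 12.8 in WT and 492 ± 28.1 in KO (SD, n = 4 each), a ratio of 1.38. After deprivation they were 498 ± 82.1 in WT and 474 ± 76.2 in KO. Tmem260 was 1.39 times as high in deprived as in undisturbed wild type mice and 0.964 times in knockout mice. These ratios include the baseline libraries that chose the gene, and neither was tested.

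The KO minus WT difference of Tmem260 after deprivation was -0.07 ± 0.157 (log2 of normalized count + 1, SE), with a 95% interval of -0.42 to 0.28. The baseline value, on which the gene was selected, was 0.46. The difference did not pass the limma test (unadjusted p = 0.661, adjusted p = 0.9999). Its sign rested on single libraries, since it was 0.04 without WT_SD 4 and 0.03 without KO_SD 4.

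Ncoa4 lies at chr14:32159865-32179855 on the plus strand (ENSMUSG00000056234), 8.15 Mb from Kcnma1. Normalized counts of Ncoa4 were 504.7, 422.3, 504 and 464.7 in WT_BL and 692.4, 610.8, 678.1 and 567.5 in KO_BL. After deprivation they were 593.3, 544.9, 573.2 and 709.4 in WT_SD and 775.3, 642.9, 520.6 and 423.9 in KO_SD. As for Tmem260, all WT_SD libraries lay above all WT_BL libraries, and KO_SD ran from near the lowest WT_BL value to above every other library. Means were 474 ± 39.2 in WT_BL and 637 ± 58.5 in KO_BL (SD, n = 4 each), a ratio of 1.34, against 605 ± 72.2 in WT_SD and 591 ± 152 in KO_SD. The difference after deprivation was -0.06 ± 0.182 (log2, SE; 95% interval -0.47 to 0.34; limma, unadjusted p = 0.731, adjusted p = 0.9999), beside the selected baseline value of 0.43. Without WT_SD 4 it was 0.015, and without KO_SD 4 it was 0.08.

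Iron and O-mannosylation genes that share a pathway with Ncoa4 and Tmem260 were examined after deprivation. Of 17 tested genes of ferritin and cellular iron, 8 were higher and 9 lower in KO, with a median log2 difference of -0.00, beside -0.00 over all 14280 genes tested, and 0 passed the test. Hmox1, which releases iron from haem, averaged 115 ± 15.8 in WT_SD and 145 ± 16.01 in KO_SD (SD, n = 4 each) and had the smallest p of the list in limma (unadjusted p = 0.0637, adjusted p = 0.9999). Of 18 genes of O-mannosylation and of plexins and related receptors, 5 were higher and 13 lower in KO, with a median of -0.10 and 0 passing. Plxnb1, a semaphorin receptor, averaged 1670 ± 91.7 in WT_SD and 1412 ± 122 in KO_SD (limma, unadjusted p = 0.0472, adjusted p = 0.9999). Both lists were thus without a call, and the same held for them at baseline.

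Ldb3 lies at chr14:34526603-34588682 on the minus strand (ENSMUSG00000021798), 10.5 Mb from Kcnma1. Normalized counts of Ldb3 were 90.67, 107.9, 73.99 and 124 in WT_BL and 167, 186.5, 181.2 and 141.9 in KO_BL. In the deprived mice they were 152, 155.3, 148.5 and 181.4 in WT_SD and 114.1, 139.5, 148.9 and 158.2 in KO_SD. The genotypes were apart at baseline and overlapped after deprivation, where the lowest library was a knockout one. Baseline means were 99.1 ± 21.6 and 169 ± 19.9 (SD, n = 4 each), so that KO was 1.71 times WT. After deprivation WT averaged 159 ± 14.99 and KO 140 ± 18.99. The log2 difference after deprivation was -0.19 ± 0.153 (SE; 95% interval -0.53 to 0.15; limma, unadjusted p = 0.241, adjusted p = 0.9999), beside the selected baseline value of 0.78. It was negative under all 20 alternative settings, from -0.25 to -0.09.

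Myh6 lies at chr14:54941921-54966927 on the minus strand (ENSMUSG00000040752), 30.9 Mb from Kcnma1, and 2.647 kb from Cmtm5. It is barely expressed in cortex, and its values rest on few reads. In WT_BL it had 11, 13, 33 and 21 recovered reads, and in KO_BL 1, 0, 6 and 6. WT_SD had 3, 4, 2 and 6 and KO_SD 4, 1, 1 and 2. As normalized counts, the means were 17.7 ± 6.81 in WT_BL, 3.15 ± 2.63 in KO_BL, 3.48 ± 1.14 in WT_SD and 2.23 ± 1.82 in KO_SD (SD, n = 4 each). Only WT_BL reached 10 normalized counts, and the 4 WT_BL libraries lay above each of the other 12. Myh6 therefore passed the filter on low values only through the group in which it was high, and after deprivation it was below the filter and was not tested.

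Myh7, the beta myosin heavy chain gene, lies 3.76 kb beyond Myh6 and is nearly identical to it in sequence, so the assignment of reads between the pair is uncertain. Myh7 counts were 205.4, 170.2, 271.3 and 201.8 in WT_BL and 82.37, 209.7, 330.9 and 189.4 in KO_BL. Its groups overlapped, and its baseline log2 difference was -0.20. Among genes of heart muscle, the highest library had 2.476 normalized counts of Myl7, 2.466 of Actc1, 11.13 of Nppa, 16.51 of Mybpc3, 34.57 of Pln and 41.27 of Tnni3. Tnnt2, at 113.5 to 209.4, and Myl4, at 132 to 885.9, were counted in every library, and no gene of the sarcomere list was at 0 throughout. Of 17 tested genes of the sarcomere and Z-disc list of 30, 8 were higher and 9 lower in KO after deprivation, with a median of -0.04 and 0 passing. Tnnc1, the slow and cardiac troponin C, had the smallest p, at 75.6 ± 12.9 in WT_SD and 107 ± 19.7 in KO_SD (limma, unadjusted p = 0.0338, adjusted p = 0.9999). Several genes of this list, such as Ryr2 and Pdlim5, are also expressed in brain. The summed level of the list was 7840 to 9001 in WT_BL, 7695 to 9244 in KO_BL, 7174 to 8662 in WT_SD and 5262 to 9702 in KO_SD. The part of muscle gene content in the Ldb3 and Myh6 values was not tested.

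**Figure D1:**
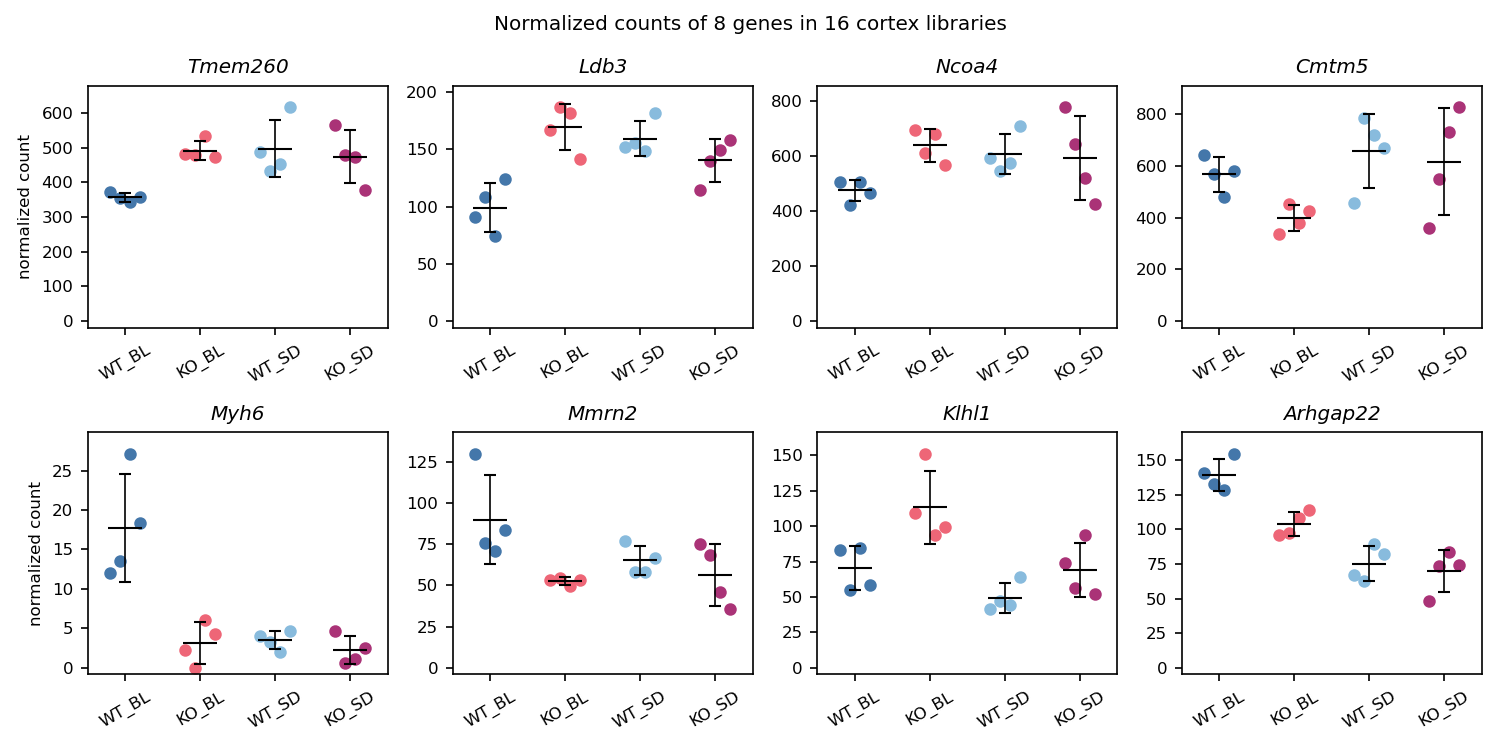
Normalized counts (y axis, from 0, a separate scale for each gene) of the 8 genes in each of 16 cortex libraries, by group (x axis); points are libraries, in the order of their replicate number, and bars are the group mean and SD of 4 libraries. At baseline the WT and KO points are apart for every gene, while the WT_SD and KO_SD points overlap for every gene.

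Cmtm5 lies at chr14:54936261-54939274 on the plus strand (ENSMUSG00000040759), 30.9 Mb from Kcnma1. Normalized counts of Cmtm5 were 643.5, 566.5, 480.1 and 578.2 in WT_BL and 336.2, 450.7, 379.5 and 427.1 in KO_BL. They were 457.3, 784.9, 718.8 and 668.3 in WT_SD and 358.8, 549, 731.1 and 825.5 in KO_SD. After deprivation the KO libraries spread more widely than in any other group and took in both the lowest and the highest value of the deprived mice. The means were 567 ± 67.2 in WT_BL and 398 ± 50.9 in KO_BL (SD, n = 4 each), a ratio of 0.703, and 657 ± 142 in WT_SD and 616 ± 206 in KO_SD. The log2 difference after deprivation was -0.13 ± 0.256 (SE; 95% interval -0.70 to 0.43; limma, unadjusted p = 0.612, adjusted p = 0.9999), beside the selected baseline value of -0.51. Without KO_SD 1 it was 0.10.

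Oligodendrocyte and myelin genes were set beside Cmtm5 as markers of the cell type that expresses it. At baseline 3 of 22 were higher and 19 lower in KO, with a median log2 difference of -0.14 against 0.00 over all genes tested, and 0 passed the test. After deprivation 14 were higher and 8 lower, with a median of 0.04 and again 0 passing. The list sums overlapped at both times, at 67059 to 116320 in WT_BL, 66004 to 98156 in KO_BL, 86657 to 153338 in WT_SD and 92408 to 145854 in KO_SD. No gene of the list was at 0. The part of oligodendrocyte content in the Cmtm5 values was not tested. Of the 5 tested relatives in the CMTM family, 1 was higher and 4 were lower in KO after deprivation, with 0 passing.

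Mmrn2 lies at chr14:34375465-34404287 on the plus strand (ENSMUSG00000041445), 10.4 Mb from Kcnma1. Its normalized counts were 130, 75.74, 70.7 and 83.85 in WT_BL and 53.43, 54.48, 49.59 and 53.3 in KO_BL. In the deprived mice they were 77.33, 58.35, 58.41 and 66.67 in WT_SD and 75.3, 68.47, 45.9 and 35.84 in KO_SD. The baseline gap was widest for WT_BL 1, and after deprivation 2 KO libraries lay within the WT range and 2 below it. Means were 90.1 ± 27.2 in WT_BL and 52.7 ± 2.14 in KO_BL (SD, n = 4 each), a ratio of 0.585, against 65.2 ± 8.99 in WT_SD and 56.4 ± 18.6 in KO_SD. The log2 difference after deprivation was -0.26 ± 0.25 (SE; 95% interval -0.81 to 0.30; limma, unadjusted p = 0.327, adjusted p = 0.9999), beside the selected baseline value of -0.72. Without KO_SD 4 it was -0.064, and over all fits that left out a library it ran from -0.41 to -0.064.

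Endothelial markers were set beside Mmrn2. At baseline 14 of 24 were higher and 10 lower in KO, with a median of 0.03 and 0 passing. After deprivation 4 were higher and 20 lower, with a median of -0.16 and 0 passing at an adjusted p of 0.05. Mfsd2a, a lipid transporter of the blood-brain barrier, averaged 502 ± 58.4 in WT_SD and 381 ± 52.7 in KO_SD (log2 -0.40 ± 0.142, limma, unadjusted p = 0.0171, adjusted p = 0.9999). Slc2a1, the glucose transporter of the barrier, averaged 1639 ± 171 and 1314 ± 142 (limma, unadjusted p = 0.0277, adjusted p = 0.9999). The summed endothelial level was 7489 to 9198 in WT_BL, 7548 to 9432 in KO_BL, 8078 to 8960 in WT_SD and 5987 to 8572 in KO_SD, and no gene of the list was at 0 in every library. Its part in the Mmrn2 values was not tested.

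Klhl1 lies at chr14:96102736-96519102 on the minus strand (ENSMUSG00000022076), 72.1 Mb from Kcnma1 and farthest from it of the 8. Normalized counts of Klhl1 were 83.03, 54.99, 84.68 and 58.52 in WT_BL and 109.1, 151.1, 94.12 and 99.39 in KO_BL. They were 41.33, 46.85, 44.55 and 64.35 in WT_SD and 74.12, 56.42, 94.05 and 51.9 in KO_SD. All KO_BL libraries lay above each of the other 12, by a margin that was narrow over KO_SD 3. The means were 70.3 ± 15.7 in WT_BL and 113 ± 25.9 in KO_BL (SD, n = 4 each), a ratio of 1.61, and 49.3 ± 10.3 in WT_SD and 69.1 ± 19.2 in KO_SD. Of the 7 tested genes Klhl1 had the largest difference after deprivation, beside its selected baseline value of 0.68, at 0.46 ± 0.236 (log2, SE; 95% interval -0.06 to 0.98). It did not pass the limma test (unadjusted p = 0.077, adjusted p = 0.9999). Over the 20 alternatives the difference was 0.30 to 0.59, the unadjusted p was as low as 0.033 without KO_SD 4, and the adjusted p was at least 0.984. Of 22 other kelch-like genes, 10 were higher and 12 lower in KO after deprivation, with a median of -0.02 and 0 passing.

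Arhgap22 lies at chr14:33214026-33369934 on the plus strand (ENSMUSG00000063506), 9.2 Mb from Kcnma1. Normalized counts of Arhgap22 were 140.9, 132.8, 128.2 and 154.6 in WT_BL and 95.73, 97.4, 108.3 and 113.8 in KO_BL. In deprived mice they were 66.66, 62.46, 89.1 and 82.18 in WT_SD and 48.24, 73.54, 83.97 and 74.15 in KO_SD. Both genotypes were lower after deprivation with no overlap, and the 4 WT_BL libraries lay above each of the other 12. Means were 139 ± 11.6 in WT_BL and 104 ± 8.69 in KO_BL (SD, n = 4 each), a ratio of 0.746, and 75.1 ± 12.6 in WT_SD and 69.98 ± 15.3 in KO_SD. The log2 difference after deprivation was -0.11 ± 0.215 (SE; 95% interval -0.59 to 0.36; limma, unadjusted p = 0.605, adjusted p = 0.9999), beside the selected baseline value of -0.42. Without KO_SD 1 it was 0.05.

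In the group comparison after deprivation, the only test here that the choice of genes had not used, 0 of the 7 tested genes passed at an adjusted p of 0.05 (limma, Benjamini-Hochberg, 14280 genes), against a background of 0% called. At an unadjusted p below 0.05 the count was also 0 of 7, with a background of 1.62%. The edgeR quasi-likelihood test and DESeq2 on recovered reads likewise called 0 of 7, with 0 at an unadjusted p below 0.05. The KO and WT libraries of 0 of the 7 were without overlap after deprivation, where 1.33% of all tested genes were. At baseline the libraries of all 8 were without overlap, which follows from how they were chosen, beside a background of 1.78%. Of all genes tested at baseline, 0.0139% had an adjusted p below 0.05 and 2.75% an unadjusted p below 0.05.

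The median absolute log2 difference of the 7 genes after deprivation was 0.13, beside 0.092 over all genes. At baseline it was 0.51, a value that is high by the choice of the genes, so the pair of medians does not measure an effect of deprivation. The direction was the same at both times for 4 of 7 genes (57.1%), namely Cmtm5, Mmrn2, Klhl1 and Arhgap22, beside 61.3% of all 14161 genes tested at both times. A closer comparison for genes chosen at baseline is the 252 genes without overlap there and tested at both times, of which 78.6% kept the direction. The difference had the opposite sign for Tmem260, Ldb3 and Ncoa4, and the change from baseline was not tested. Without KO_SD 1 the count of genes with the same direction was 2, and without WT_SD 4 or KO_SD 4 it was 6.

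**Figure D2:**
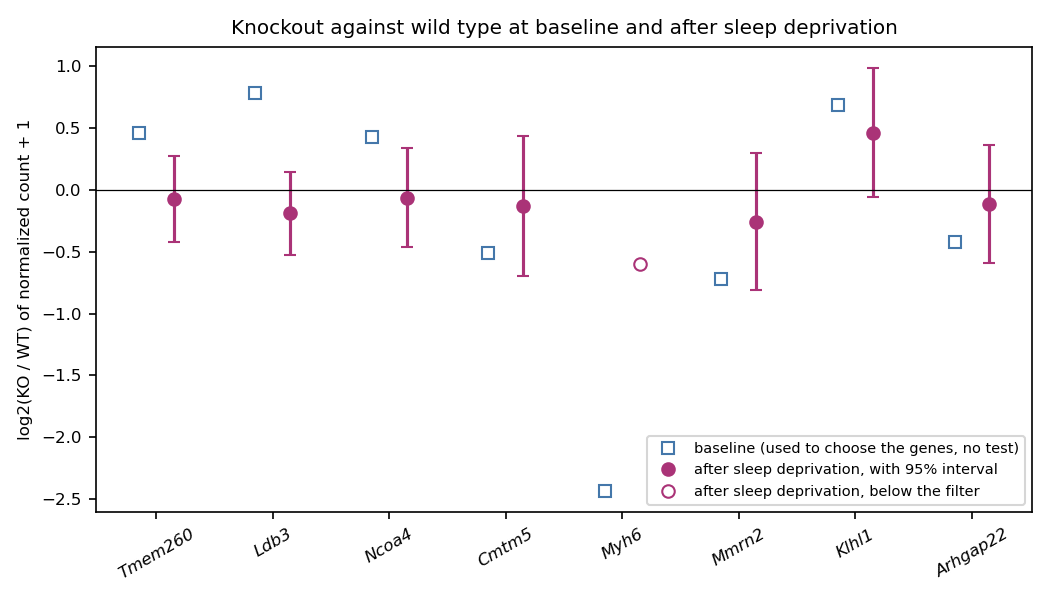
KO minus WT difference (y axis, log2 of normalized count + 1) of the 8 genes (x axis) at baseline, as open squares without an error since it chose the genes, and after sleep deprivation, as points with the 95% interval of limma. Every interval after deprivation includes 0; Myh6, below the filter after deprivation, is an open circle.

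The 16 libraries also show which group stood apart, a description that includes the baseline libraries. WT_BL lay apart from the other 12 libraries for Tmem260, Myh6 and Arhgap22 (3 of 8 genes, background 0.181%), and KO_BL for Klhl1 (1 of 8, background 0.181%). These counts follow in part from the choice of genes with baseline groups apart, and nothing is read from them. In wild type mice the deprived libraries were above the undisturbed ones without overlap for Tmem260, Ldb3 and Ncoa4, by 0.46, 0.70 and 0.35 on the log2 scale, as were 6.09% of all genes. They were below them for Myh6, at -2.04, and Arhgap22, at -0.89, as were 4.24% of all genes. In knockout mice the same comparison was without overlap for Klhl1, at -0.72, and Arhgap22, at -0.59, both below, as were 3.61% of all genes, and for 0 of the 8 above, beside 4.62%. For Tmem260, Ldb3 and Ncoa4 the knockout values were -0.07, -0.27 and -0.14. The summed striatal marker level was also lower in deprived mice, with means of 14028 in WT_BL and 5929 in WT_SD, and 13671 in KO_BL and 8260 in KO_SD. Its range was 6082 to 25595 in WT_BL, 6582 to 19790.1 in KO_BL, 4790 to 7235 in WT_SD and 5365 to 12536 in KO_SD, and its part in these values was not tested.

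Levels between genes were compared per transcript length, as deposited FPKM, a read count scaled for gene length and library size. Averaged over 16 libraries, the order was Cmtm5 at 33.2, Ncoa4 at 16.2, Tmem260 at 7.33, Arhgap22 at 4.47, Ldb3 at 1.71, Klhl1 at 0.945, Mmrn2 at 0.865 and Myh6 at 0.221. Klhl1 and Mmrn2 are neighbours in this order whose group means crossed, with 0.88 ± 0.178 and 1.18 ± 0.351 in WT_BL but 1.42 ± 0.344 and 0.691 ± 0.0323 in KO_BL (SD, n = 4 each). Tmem260 and Arhgap22 also crossed, at 5.78 ± 0.266 and 6.43 ± 0.618 in WT_BL and 8.02 ± 1.23 and 3.46 ± 0.573 in WT_SD.

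**Figure D3:**
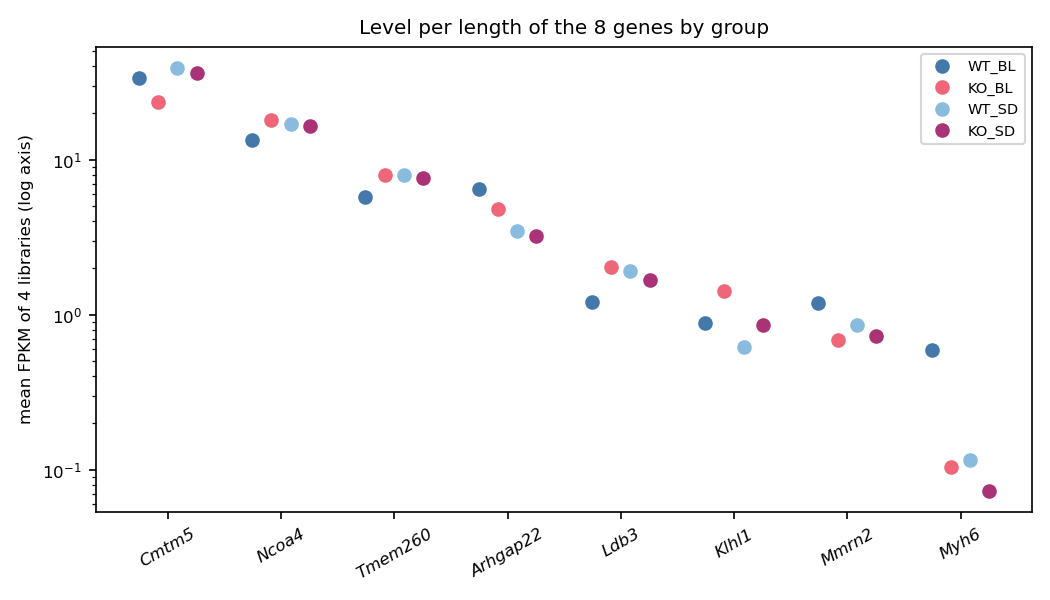
Mean FPKM of 4 libraries (y axis, log scale) of the 8 genes (x axis, in order of their overall mean) in each of the 4 groups, given by colour. The overall means run from 33.2 for Cmtm5 to 0.221 for Myh6, and for Tmem260, Ncoa4 and Ldb3 the WT_BL point lies below the other 3.

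By position, 7 of the 8 genes lay within 35 Mb of Kcnma1 and Klhl1 lay beyond. Most tested genes of the chromosome also lay within 35 Mb, with 133 at 35 to 60 Mb and 62 beyond 60 Mb. Of 485 chromosome 14 genes tested at baseline, 25 had KO and WT libraries without overlap (5.15%), the highest share of the 20 chromosomes compared, ahead of chromosome 18 with 3.48%. The 8 described genes are among these 25, and without them the share was 3.56% of 477. Of the 25, 16 were higher and 9 lower in KO, and they lay from 12.1 Mb on the centromeric side to 72.1 Mb on the telomeric side of Kcnma1. After deprivation 10 of 478 chromosome 14 genes were without overlap (2.09%), which was the second highest share, after chromosome 1 with 2.44%.

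Genes without overlap at baseline were rarely so again after deprivation, on chromosome 14 as over all chromosomes. Of the 24 baseline genes of chromosome 14 tested after deprivation, 0 were again without overlap, and 19 had the same direction (79.2%). The 7 tested genes described here are among the 24, and 4 of them are among the 19. Over all chromosomes, 252 genes without overlap at baseline were tested at both times, of which 6 were again without overlap (2.38%) and 198 had the same direction (78.6%). With all 8 KO against all 8 WT libraries, 0 of 473 chromosome 14 genes were without overlap, beside 3 of 14161 over all chromosomes (0.0212%). Those 3, Pgap2, 8430408G22Rik and Slc35e3, lie on chromosomes 7, 6 and 10.

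Divided by distance, the baseline share was 4 of 68 genes (5.88%) on the centromeric side of Kcnma1. On the telomeric side it was 3 of 71 (4.23%) within 10 Mb, 4 of 53 (7.55%) from 20 to 30 Mb, 7 of 81 (8.64%) from 30 to 35 Mb, 4 of 133 (3.01%) from 35 to 60 Mb and 1 of 62 (1.61%) beyond. The interval from 10 to 20 Mb held 2 of only 16 genes. The 8 described genes, chosen for a baseline difference, are counted in these shares. They were 2 of the 3 genes without overlap within 10 Mb, and 2 of the 2 from 10 to 20 Mb. From 20 to 30 Mb they were 1 of 4, from 30 to 35 Mb 2 of 7, and beyond 60 Mb 1 of 1. These shares rest on few genes each, the centromeric side was not divided by distance, and no difference between them was tested.

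**Figure D4:**
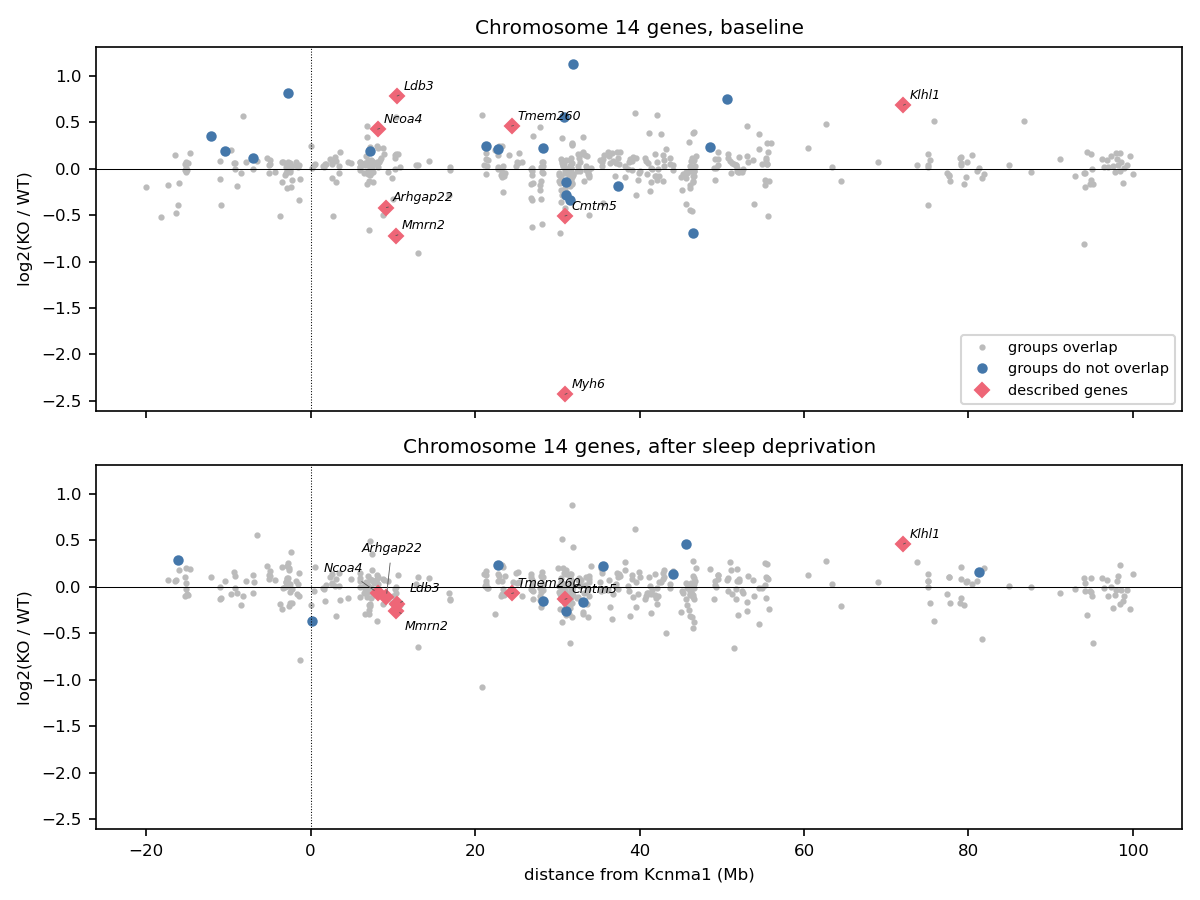
KO minus WT difference (y axis, log2 of normalized count + 1) of tested chromosome 14 genes by distance from Kcnma1 (x axis, Mb, negative toward the centromere), at baseline (upper) and after sleep deprivation (lower). Blue points are genes whose KO and WT libraries do not overlap, 25 with the described genes (red diamonds) at baseline and 10 after deprivation, where the red diamonds other than Klhl1 lie between -0.26 and -0.06.

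The nearest tested genes on each side of the 8 were also examined. Of 13 such neighbours outside the 8, 0 had baseline libraries without overlap, a share near the 1.78% of all genes, and their differences ran from -0.42 to 0.56. Timm23, a subunit of the mitochondrial import channel, lies 0.307 kb from Ncoa4 and had a log2 difference of 0.22. Sncg, gamma-synuclein, lies 0.676 kb from Mmrn2 and was at 0.56 ± 0.402 (SE), whereas Mmrn2 was at -0.72. Sncg ran from 24.9 to 35.35 normalized counts in WT_BL and from 25.3 to 118 in KO_BL, so its groups overlapped. Efs, 10.1 kb from Cmtm5, was at -0.42. Several annotated transcripts overlap the 8 genes but have no values of their own here. These are Gm49519 on the strand of Tmem260, Gm49130 opposite and Mir208a within Myh6, Gm15515 and Gm24043 within Klhl1, and Gm49030 and Gm15512 opposite Arhgap22. As the strand setting of the counting is not given, their reads cannot be told from those of the 8.

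Ranked by the baseline p over 14341 genes, the 8 stood at 3, 6, 8, 9, 10, 18, 33 and 51, in the order Tmem260, Ldb3, Ncoa4, Cmtm5, Myh6, Mmrn2, Klhl1 and Arhgap22. These ranks follow from the choice of the genes on the baseline difference, and nothing is read from them. Other chromosome 14 genes of this range that were not among the 8 were Ppp1r3e, a regulator of glycogen phosphatase, at 17 and Cbln3, a cerebellin, at 31. Ppp1r3e averaged 99.8 in WT_BL and 148 in KO_BL, against 125 and 128 in WT_SD and KO_SD. Cbln3 ran from 4.37 to 9.04 in WT_BL and 10.7 to 19.2 in KO_BL, but from 6.93 to 94.6 in WT_SD and 18.8 to 157 in KO_SD. The next genes were Psmb5, a proteasome subunit, Fndc3a and Htr2a, the serotonin 2A receptor, at ranks 74, 86 and 98.

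Likeness in pattern was measured against Tmem260 over the 16 libraries, as Pearson's r of log2 values. These include the baseline libraries that chose the 8 genes, so r among the 8, Ncoa4 included, follows in part from that choice. Among all genes tested Ncoa4 was the most similar, with r = 0.889 and a Spearman rank correlation of 0.924, and r was again 0.889 without the 2 libraries farthest from the median. Zfp235, Zdhhc5, Rbl2 and Mss51 followed, at 0.828, 0.776, 0.776 and 0.773. Mss51 is also on chromosome 14, and at 7.57 to 14.5 normalized counts per group it is a low gene. The lowest were Sdhaf1 at -0.865, an assembly factor of succinate dehydrogenase, Zdhhc12 at -0.786 and Mblac1 at -0.785. Among the 8, Tmem260 and Ldb3 had r = 0.65 and Ldb3 and Myh6 r = -0.72. All points share their libraries and scaling.

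Measures of transcript length and of region content were set beside the values of the 8 genes. The level of short relative to long transcripts (log2, shortest 25% minus longest 25% of genes) was -0.379, 0.028, 0.180 and 0.588 in KO_SD 1 to 4, against -0.111 to 0.243 in WT_SD, -0.183 to 0.0657 in WT_BL and -0.249 to -0.0019 in KO_BL. Along these 4 libraries Tmem260, with 564.7 to 378.1, Ncoa4, with 775.3 to 423.9, and Mmrn2, with 75.3 to 35.84, stood in descending order. Cmtm5, with 358.8 to 825.5, and Ldb3, with 114.1 to 158.2, stood in ascending order. Klhl1, Arhgap22 and Myh6 stood in neither order. The deposited gene lengths were 3200 bases for Tmem260, 1830 for Ncoa4 and 3940 for Mmrn2, and 869 for Cmtm5 and 4280 for Ldb3. Those in neither order were 4120 for Klhl1, 1120 for Arhgap22 and 1550 for Myh6. The order thus did not follow gene length among the 8. The share of all genes in either order was not counted, and nothing is read from these orders. Hippocampal markers were lower in KO for 8 of 11 genes after deprivation, with a median of -0.38 and 0 passing. Fibcd1, a hippocampal CA1 marker, averaged 852 ± 281 in WT_SD and 473 ± 105 in KO_SD (limma, unadjusted p = 0.00414, adjusted p = 0.9999), and the list sums were 9688 to 12421 and 7843 to 10624. Striatal markers were higher in KO for 10 of 11, with a median of 0.36 and 0 passing. The part of transcript length and of region content in the values of the 8 genes was not tested.

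Markers of the other cell types gave no call. After deprivation, 1 of 10 astrocyte genes was higher and 9 lower in KO (median -0.12), 2 of 10 microglial genes were higher and 8 lower (-0.07), and 8 of 12 cortical neuron genes were higher and 4 lower (0.11). For meninges and mural cells 5 of 14 were higher and 9 lower (-0.08), for choroid plexus 3 of 7 higher and 4 lower (-0.07), for red cells 3 and 4 of 7 (-0.11), and for thalamus and hypothalamus 4 and 3 of 7 (0.15). By limma 0 genes of the 17 lists passed in either comparison of genotypes.

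In the authors' deposited table, the log2 ratio of WT over KO for Tmem260 was -0.3581 at baseline and 0.04363 after deprivation. For Klhl1 the authors' deposited table gave -0.2721 and -0.1838, and for Cmtm5 0.3382 and 0.04042. The baseline ratios of all 8 genes in the authors' deposited table had the directions given above and were smaller in size, and how they were estimated is not stated. Over all genes, the authors' deposited table held 3 with a false discovery rate below 0.05 at baseline and 0 after deprivation. Tmem260, selected on the baseline difference, was among the 3, and the other described genes were not.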

How the data were processed

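Per the labels' protocols, cortex RNA was isolated on RNeasy columns, treated with DNase I and run on an Illumina HiSeq2500. RSEM 1.2.19, edgeR, mm10 and GRCm38 are credited to the submitters' processing notes. Strandedness and annotation release were not given in the sources used here. Normalized counts and FPKM came from the deposited sheet of the baseline comparison, which holds all 16 libraries. The authors' results after deprivation came from the sheet of that comparison, whose normalized counts served as an alternative. A further 80 per-sample columns were not used. The normalized count is a signal that the authors made, per the file headers, from gene counts and 1 factor for each library. FPKM, the log2 ratio of the authors, their p-value and false discovery rate, the GC fraction and the gene length were read as deposited. The GC fraction of each gene entered no test.

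Whole reads were recovered from the steps of the low values, and 100% of values up to 20 reads were whole within 0.1 read in each of the 16 libraries. The step of WT_SD 3 was 0.99. Between replicates, recovered reads differed by at least 7.94 in chi-square per degree of freedom, so none was treated as deposited repeatedly. Genes with at least 10 normalized counts in at least 4 libraries of a comparison were tested with limma 3.58.1 (R 4.3.3) on log2(normalized count + 1), a scale that understates the change of low genes. The fit held the 8 libraries of a comparison, with a mean-variance trend, a robust step, two-sided p-values and Benjamini-Hochberg adjustment over all genes at 0.05. Non-overlap means that every KO library lay on the same side of every WT library.

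The 8 genes, the 17 gene lists and the tests were chosen with earlier results of these data known. The counts of 1 list are not reported here. The baseline comparison chose the genes, so its p entered for them only as a rank, and no test of it made here is given for them. Differences between deprived and undisturbed mice share the baseline libraries and are described without a test. Named genes were the 8, Kcnma1, up to 3 genes per list with the smallest p after deprivation, the nearest tested neighbours, the 5 other chromosome 14 genes with the smallest baseline p, and the 5 highest and 3 lowest correlations with Tmem260. Genes named as levels of a cell type, Pgap2, 8430408G22Rik, Slc35e3, Ryr2 and Pdlim5 were named after their values were seen. Positions are from GENCODE M21 (GRCm38), in which 22570 of 22880 identifiers matched. Each animal gave 1 library. Intervals of the fit are 95% confidence intervals of the difference between group means. They rest on the variance between animals, drawn toward a trend over all genes.

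Alternatives were other pseudocounts, filters and scalings, no trend or robust step, 1 model of all 16 libraries, the replicate number as a block, edgeR 4.0.16 and DESeq2 1.42.0 on recovered reads, and leaving out each library. The values of the sheet for the deprived mice were added as an alternative after seeing the data.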

Additional observations from a re-analysis of the deposited data

How the results depend on the processing

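After sleep deprivation, 0 genes passed under each of the 20 alternatives, and none of the 7 tested genes passed in any of them. In leave-one-out fits the difference after deprivation changed direction for 4 of the 7, ranging from -0.16 to 0.036 for Tmem260, -0.21 to 0.083 for Ncoa4, -0.30 to 0.10 for Cmtm5 and -0.21 to 0.052 for Arhgap22. The directions of Ldb3, Mmrn2 and Klhl1 held under all 20, with Mmrn2 at -0.064 without KO_SD 4. At baseline the direction, which the choice of genes had used, held for 7 genes under 19 alternatives and for Myh6 under the 18 in which it was tested. The number of genes passing at baseline was 2, and it was 0 with a pseudocount of 0.5, 0 without the trend and robust steps, 1 in the model of all 16 libraries, 1 with edgeR, 3 with DESeq2 and 0 to 3 on leaving out a library (0 without WT_BL 1, 2 or 4, and 1 without KO_BL 1, 2 or 4). The cause was not tested. The count of genes with the same direction at both times was 2 to 6 on leaving out a library. With fewer samples by construction, leave-one-out counts of chromosome 14 genes without overlap were 29 to 46 at baseline, with 41, 40 and 46 without WT_BL 2, WT_BL 3 and KO_BL 4. They were 11 to 27 after deprivation, with 22, 23, 19 and 27 without WT_SD 4, KO_SD 1, KO_SD 2 and KO_SD 4. Over all libraries they were 0 to 1, with 1 without WT_BL 1 or KO_BL 4.

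With the replicate block, 2 genes passed at baseline and 0 after deprivation, and 817 against 395 and 268 against 232 had an unadjusted p below 0.05. Same-numbered WT and KO libraries correlated at 0.227, -0.185, 0.0618 and 0.305 at baseline and 0.355, 0.0640, 0.0171 and -0.421 after deprivation in their deviations from the group mean. The labels do not say that a number pairs animals, and not every library correlated best with its own number, although the length measure was lower in KO in all 4 same-numbered pairs at baseline. Whether the numbers mark a shared source was not settled, and the block was kept as an alternative.

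With 4 libraries per group the intervals after deprivation are wide, and Myh6, at 6 reads or fewer in each deprived library, could not be compared there. The depth of 8.76 M to 30.5 M reads limits Myh6 most. Genotype labels could not be checked with the gene count of Kcnma1.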
